A study of Mus musculus with 2 samples.

Results

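The cells described here are lymphocytes of mouse liver tumours chosen by RNA for the surface receptor gene Cd160 together with Xcl1, Gzmc or Klrc1. A cell had to hold at least 1 unique molecular identifier (UMI, a counted RNA molecule) of Cd160 and at least 2 of Xcl1, Gzmc and Klrc1 in sum. It could hold no UMI of the Ly49 genes Klra4, Klra7 and Klra8 or of Klre1, none of Cd8a or Cd8b1, none of Foxp3, and at most 2 of C1qa, C1qb and C1qc. A barcode counted as a kept cell if its UMIs numbered 500 or more, it showed 250 genes or more, and no more than 10% of its UMIs were mitochondrial. The gate chose 204 of 21998 kept cells. There were 114 gated cells among 10846 in the STK library and 90 among 11152 in the DMSO library. A CD3 UMI (Cd3d, Cd3e or Cd3g) was seen in 65 of the 114 STK cells and in 54 of the 90 DMSO cells.

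The study profiled leukocytes from hepatocellular carcinomas of mice labelled MYC-ON, with droplet 5′ single-cell RNA sequencing. The mice had been gavaged with STK, an agent the labels do not describe further, or with DMSO, the solvent. Every tumour in both groups therefore carries the MYC-ON genotype, and the promoter that drives MYC, the ages and the number of animals are not stated in the labels. Live cells were sorted on the pan-leukocyte antigen CD45, so shares are shares of sorted cells. With 1 library per group, differences between treatments could not be tested against replicates, and every interval is at 95% and covers counting error only.

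CD160 is a receptor of cytotoxic and tissue-resident lymphocytes that binds HVEM and classical or non-classical MHC class I. Xcl1 encodes the chemokine lymphotactin, which attracts the XCR1-bearing dendritic cells that cross-present antigen. Gzmc encodes granzyme C, and Klrc1 encodes NKG2A, an inhibitory receptor that pairs with CD94. Group 1 innate lymphoid cells (ILC1), tissue-resident natural killer (NK) cells and some unconventional T cells of the liver share this set of genes. NK cells and ILC1 carry no T cell receptor with CD3 at their surface, whereas T cells, including gamma-delta and NKT cells, do, so RNA of a CD3 gene alone does not make a cell a T cell.

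The deposited matrices held 11672 STK and 11784 DMSO barcodes with 81859811 and 79322966 UMIs. The gated cells had median depths of 4810.5 UMIs in STK and 4524 in DMSO, and their summed depths were 652151 and 558036 UMIs. The libraries differed in sex. Among gated cells, 56 STK cells had Xist RNA and no Y-linked RNA and 21 the reverse, against 6 and 50 DMSO cells. Treatment and sex therefore cannot be told apart over all cells, and some results are also given in cells with Y-linked RNA alone, which leave 21 STK and 50 DMSO gated cells. The libraries shared 203 barcode sequences, of which 3 were gated cells in STK and 2 were gated cells in DMSO.

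The gated cells made up 1.05% of kept cells in STK (Clopper-Pearson interval 0.868% to 1.26%) and 0.807% in DMSO (0.649% to 0.991%). The ratio of the shares was 1.30 with an interval of 0.979 to 1.74, which includes equality. Among cells with Xist RNA alone the ratio was 2.07, on only 6 DMSO cells, and among cells with Y-linked RNA alone it was 1.15.

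Of the genes in the rule, Xcl1 was the one that brought in most cells. It had a UMI in 109 of 114 STK cells and 84 of 90 DMSO cells, with a median of 8 UMIs per cell (0 to 300) in STK and 5 (0 to 63) in DMSO. Klrc1 was seen in 78 STK and 57 DMSO cells. Gzmc was seen in 21 cells of each library, and its UMIs were concentrated: 1 cell held 134 of 336 in STK and 1 cell held 185 of 387 in DMSO. Granzyme C RNA was thus a feature of a minority of the gated cells in both libraries. Most of it lay in cells without CD3, with 236 of 336 UMIs in STK and 379 of 387 in DMSO. Xcl1 was likewise richer in cells without CD3, which had a median of 12 UMIs in STK and 12.5 in DMSO, beside 5 and 3 in cells with CD3.

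These values chose the cells and are a description. Cells just inside the Cd160 limit, with exactly 1 UMI, numbered 50 in STK and 29 in DMSO, and 56% and 65.5% of them had a CD3 UMI. Cells that missed the gate only for want of a Cd160 UMI numbered 196 and 98, and 68.4% and 64.3% had a CD3 UMI. A further 604 STK and 448 DMSO cells failed only on the Ly49 and Klre1 clause, and 137 and 107 failed only on the Cd8 clause. Cells with 2 UMIs of the Xcl1, Gzmc and Klrc1 sum numbered 6 and 8, against 9 and 15 with 1 UMI that met every other clause.

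The data only partly bore out the name innate-like lymphocytes, because most of the cells carried CD3 RNA and with it other T cell genes. By CD3 and Ncr1 (the NK and ILC1 receptor NKp46), 43 STK cells had CD3 alone, 22 had both, 44 had Ncr1 alone and 5 had neither. In DMSO these counts were 42, 12, 33 and 3. The share with CD3 was 57.0% in STK (47.4% to 66.3%) and 60% in DMSO (49.1% to 70.2%), so the libraries differed by less than counting error. After every cell was thinned to 1000 UMIs, the share with CD3 was 49.1% in STK and 48.9% in DMSO.

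**Figure D1:**
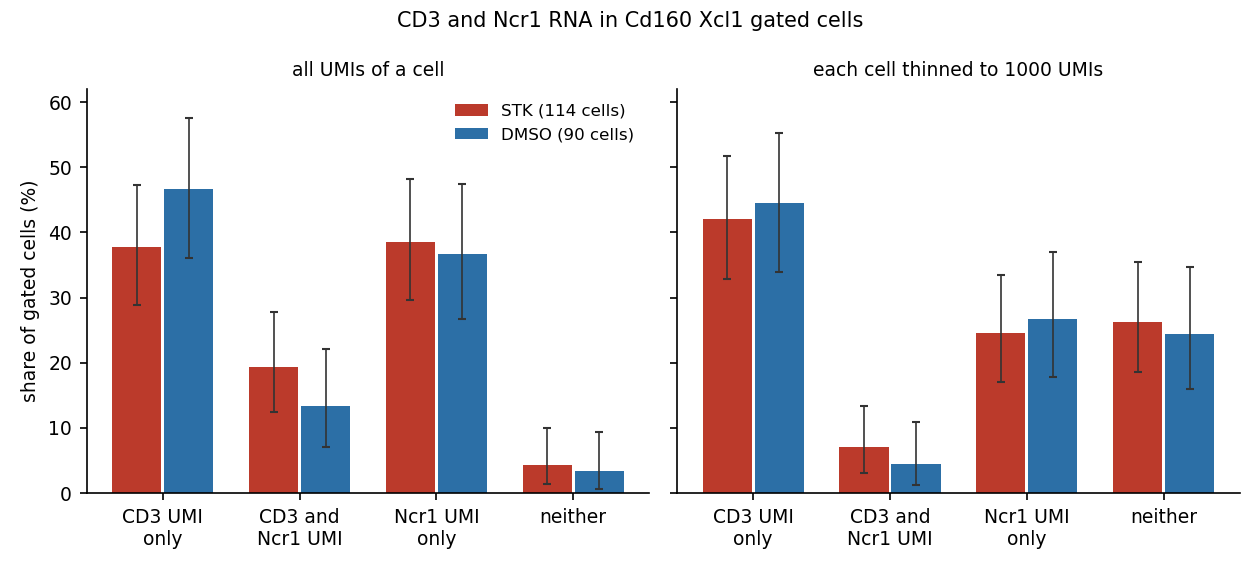
Share of gated cells (%, vertical axis) by whether a cell had a UMI of CD3 genes, of Ncr1, of both or of neither, for STK (red) and DMSO (blue), with all UMIs (left panel) and after thinning to 1000 UMIs (right panel). Bars are shares and whiskers are Clopper-Pearson intervals; CD3-only and Ncr1-only cells were the largest classes with all UMIs in both libraries.

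Free RNA in droplets gives a background of such UMIs. Among gated lymphocytes Cd3e was seen in 46.5% of STK and 50% of DMSO cells. In macrophage-gated cells, which have at least 20 C1q UMIs and should lack CD3, it was seen in 8.24% of STK and 7.13% of DMSO cells at medians of 8855 and 6870 UMIs. With all cells at 1000 UMIs the shares were 28.1% and 27.8% of gated lymphocytes in STK and DMSO, against 1.88% and 1.97% of macrophage-gated cells. For Cd3g the thinned shares were 34.2% and 36.7% of gated lymphocytes and 2.59% and 2.25% of macrophage-gated cells, but 8.69% and 6.84% of NK-gated cells. For Cd3d they were 28.9% and 26.7% of gated lymphocytes, 7.12% and 6.20% of NK-gated cells and 2.0% and 1.83% of macrophage-gated cells. Among gated, NK-gated and macrophage-gated cells, the gated cells thus had the highest shares for each CD3 gene. NK-gated cells also stood above macrophage-gated cells, so a single CD3 UMI does not by itself separate a gated cell from NK-gated cells.

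Receptor segments divided the CD3-bearing cells further. Beta-chain variable segments were seen in 42 of 65 STK and 39 of 54 DMSO cells with CD3. Among cells without CD3 they were seen in 3 of 49 STK and 9 of 36 DMSO cells. In cells without CD3 the share was 6.12% in STK and 25% in DMSO, beside 9.07% and 15.2% of macrophage-gated cells, so the shares in DMSO were the higher ones in both sets of cells. Alpha-chain variable segments were seen in 35 of 65 and 42 of 54 cells with CD3, and in 0 of 49 and 6 of 36 cells without.

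The constant segment Trdc of the delta chain was seen in 21 of 65 STK and 13 of 54 DMSO cells with CD3, and in 3 of 49 and 0 of 36 cells without. It was also seen in 17.1% and 16.4% of NK-gated cells. Gamma constant segments did not separate the cells by CD3, with 35.4% of STK and 29.6% of DMSO cells with CD3 and 38.8% and 36.1% of those without. Both parts of the gate stood above NK-gated cells, at 11.5% and 9.45%, and CD8-gated cells, at 10.6% and 5.85%. The gamma variable segment Trgv2 was seen in 20 of 65 and 19 of 54 cells with CD3 and in none of 49 or 36 cells without; among CD8-gated cells it was seen in 11.0% and 5.75%. Delta variable segments did not separate the cells by CD3. They were seen in 29.2% of STK and 20.4% of DMSO cells with CD3, in 42.9% and 36.1% of those without, and in 51.6% and 49.7% of NK-gated cells, so a delta segment alone does not mark a T cell here. The Trav11 segments of the invariant NKT receptor were seen in 1 STK and 4 DMSO cells with CD3. Zbtb16, the transcription factor of NKT and other innate-like T cells, was seen in 3 of 65 and 5 of 54 cells with CD3. Cd4 was seen in 12 of 65 and 10 of 54, with 1 cell in each library among those without CD3.

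Genes of the cells with CD3 were set against those of the cells without, in each library separately. Depths were similar, with medians of 4110 UMIs in STK and 4524 in DMSO with CD3 and 5008 and 4513 without. Values are CPM, the UMIs of a gene scaled to equal summed depth and so comparable between sets of cells. Of 1332 genes with at least 30 UMIs and 50 CPM on the side where they were higher in both libraries, 40 (3.0%) were at least 1.5 times higher with CD3 in both libraries and 38 (2.85%) at least 1.5 times lower. With barcodes that carried RNA of other lineages left out, 25 genes were higher. Only 1 gene was higher and 16 were lower with Y-linked RNA alone, where fewer cells were left to reach the minimum.

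T cell signalling genes were on the CD3 side. Of 9 measured genes of the T cell receptor complex and its signalling that were not used to split the cells, 5 were higher in both libraries and none was lower. Cd5, an inhibitor of receptor signalling, had 38 UMIs in STK cells with CD3 and 1 in STK cells without, and 61 and 2 in DMSO. Lat, the adaptor of the T cell receptor, had 310 CPM with CD3 and 39.6 without in STK, and 314 and 66.7 in DMSO. Cd247, the zeta chain, was 6.89 times higher in STK and 5.76 times higher in DMSO. Pdcd1, encoding PD-1, had 294 CPM with CD3 and 43.2 without in STK, and 284 and 97.5 in DMSO. Tnfrsf4 (OX40) and Gzmk were at or near 0 without CD3 in both libraries, but lay in few cells: Gzmk was seen in 6 STK and 8 DMSO cells in all. Penk, encoding proenkephalin, ranked first, yet 221 of its 223 STK UMIs and 84 of its 100 DMSO UMIs were each in 1 cell.

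NK and ILC1 genes were on the other side. Of 12 measured genes shared by NK cells and ILC1, 8 (66.7%, beside 2.85% over all genes) were lower with CD3 in both libraries. None was higher. The median log2 ratios were -1.13 in STK and -1.48 in DMSO, against 0.02 and 0.10 over all genes tested. Ncr1 had 195 CPM with CD3 and 767 without in STK, and 165 and 929 in DMSO. Klrb1b, an inhibitory receptor of the NKR-P1 family, had 42.7 and 396 CPM in STK, and 35.8 and 400 in DMSO. Tyrobp, the adaptor DAP12, was 0.452 of the level without CD3 in STK and 0.253 in DMSO. Tbx21, encoding T-bet, was at ratios of 0.402 and 0.651. The receptor genes of the Klrb1 and Ly49 families are close copies of each other, and how reads shared between copies were counted is not given in the sources used here.

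Granzyme and chemokine RNA also differed. Gzma had 150 CPM with CD3 and 965 without in STK, and 19.3 and 909 CPM in DMSO, but was seen in only 15 STK and 13 DMSO cells. The chemokine genes Ccl3 and Ccl4 were lower with CD3 in both libraries, Ccl3 at ratios of 0.427 in STK and 0.314 in DMSO. Car2, carbonic anhydrase 2, had 85.5 CPM with CD3 and 633 without in STK, and 57.8 and 323 in DMSO. Klf2, a transcription factor gene of lymphocyte recirculation, was higher with CD3 in both libraries, at ratios of 2.16 in STK and 2.35 in DMSO. Of 8 measured genes of tissue residency, none passed 1.5 times in both libraries in either direction, and Il7r was at ratios of 1.26 in STK and 1.48 in DMSO. Tmem176a and Tmem176b of that list were left out of the count because they were also high in hepatocytes. Tmem176b had 82.8 CPM with CD3 and 324 without in STK, and 52.3 and 359 in DMSO, and Tmem176a was at ratios of 0.210 and 0.452.

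**Figure D2:**
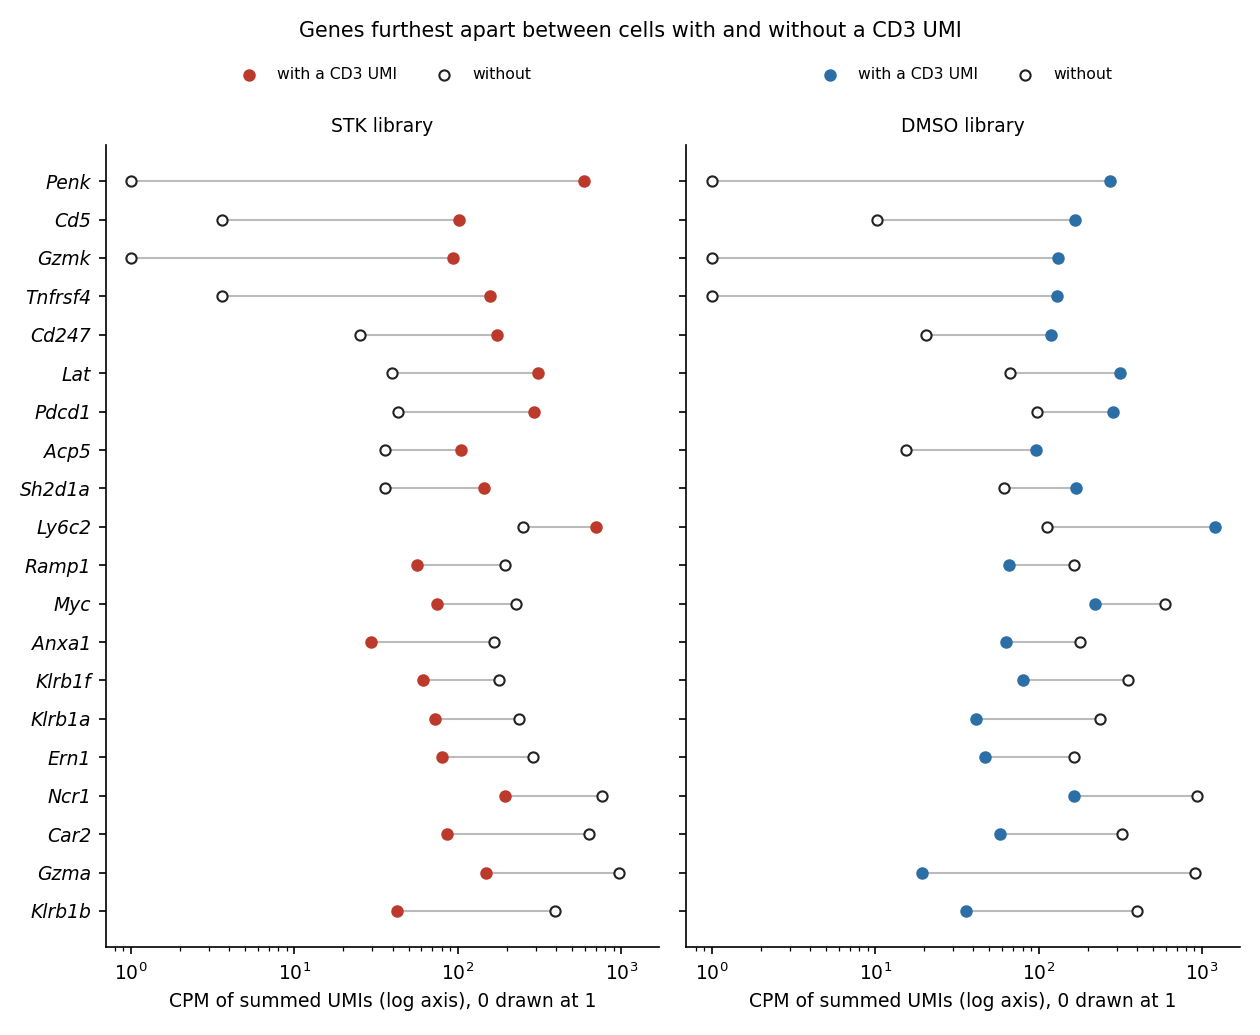
CPM of summed UMIs (log axis) of the 10 genes furthest apart in each direction, for cells with a CD3 UMI (filled) and without (open), with genes at 0 drawn at 1, in STK (left panel) and DMSO (right panel). Genes of T cell signalling such as Cd5 and Lat sit higher with CD3, and Klrb1b, Ncr1 and Gzma sit higher without, in both libraries.

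To place the gated cells among cytotoxic lymphocytes, they were set against NK-gated cells, which hold Ncr1 and at least 2 UMIs of the Ly49 and Klre1 genes (1084 STK and 794 DMSO cells). Of 2806 genes with enough UMIs in both libraries, 33 (1.18%) were at least 2 times higher in the gated cells in both libraries and 18 (0.641%) at least 2 times lower. These counts were 9 higher and 27 lower with Y-linked RNA alone. In that subset the gated cells are few beside the NK-gated cells, so genes higher in gated cells reach the minimum less easily. Both populations were picked by RNA of the same cells, so this too is a description.

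Genes of circulating NK cells were on the lower side. Of 12 measured genes of circulating NK cells, 8 (66.7%, beside 0.641% over all genes) were at least 2 times lower in both libraries. Only 1, Ly6c2, was higher (8.33%, beside 1.18%). The full list includes the Ly49 genes Klra1, Klra3 and Klra9, close copies of genes that set the gates apart. The direction of any of these among the measured genes was largely fixed by the gates. Gzma, encoding granzyme A, had 497 CPM in gated cells and 7188 CPM in NK-gated cells of STK, and 330 and 5611 CPM in DMSO. Prf1, encoding perforin, had 84.3 and 529 CPM in STK, and 66.3 and 482 CPM in DMSO. Gzmb was 4.02 times higher in NK-gated cells of STK and 4.69 times higher in those of DMSO. Of 15 measured granzyme and cytotoxic genes, 4 (26.7%, beside 0.641% over all genes) were lower and 9 lay between. The 2 higher genes were Gzmk and Tnfsf10 (13.3%, beside 1.18% over all genes). Eomes, a transcription factor of circulating NK cells that liver ILC1 largely lack, had 50.6 CPM in gated cells and 171 in NK-gated cells in STK, and 46.6 and 202 in DMSO. A gene below the minimum of 50 CPM in gated cells, such as Eomes in DMSO, could only be counted as lower. With each cell at 1000 UMIs, Gzma was seen in 10.5% of gated STK cells and 7.78% of gated DMSO cells, against 75.1% and 76.1% of NK-gated cells and 2.47% and 2.11% of macrophage-gated cells.

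Residency genes were in part higher than in NK-gated cells. Of 11 measured genes of ILC1 or tissue residency, 5 (45.5%, beside 1.18% over all genes) were at least 2 times higher in both libraries. None was lower. The median log2 ratios were 1.05 in STK and 0.61 in DMSO, against -0.01 and 0.01 over all genes tested. Il7r, the interleukin 7 receptor, had 182 CPM in gated cells and 28.0 in NK-gated cells in STK, and 168 and 26.6 in DMSO. Cxcr6, a chemokine receptor that holds lymphocytes in liver sinusoids, had 135 and 26.0 CPM in STK, and 172 and 23.8 in DMSO. Il7r and Cxcr6 were below the minimum of 50 CPM in NK-gated cells, so they passed only through the gated cells. Such genes could only be counted as higher, so the count is partly set by the minimum. Tnfsf10, encoding the death ligand TRAIL of ILC1, was 3.48 and 3.30 times higher. Zfp683, encoding the residency factor Hobit, had only 13 UMIs in STK and 23 in DMSO and was not measured against this minimum. The integrin gene Itga1 had 23 and 10. All 20 genes of the residency list summed to 3442.5 CPM in gated cells of STK and 3374 in those of DMSO. The same sums were 2739 and 2807 CPM in NK-gated cells and 2848.5 and 2745 CPM in CD8-gated cells.

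Lymphotoxin genes were higher as well, while of 9 measured genes of the early response to antigen receptor signalling none was 2 times higher or lower in both libraries. Lta had 70.5 CPM in gated cells against 4.39 in NK-gated cells of STK, and 59.1 against 6.45 in DMSO. Ltb, its partner, was 2.40 and 2.51 times higher. The transcription factor genes Rora, a factor of innate lymphoid cells, and Ikzf2 (Helios) were 4.41 and 3.95 times higher in STK and 3.98 and 4.17 times higher in DMSO. The T cell receptor complex and its signalling had 12 measured genes here. Of these, 6 (50%, beside 1.18% over all genes) were at least 2 times higher in both libraries, among them Cd5, Lat and Cd28. Cd3e had 442 CPM against 58.9 in NK-gated cells of STK, and 487 against 49.8 in DMSO. It was below the minimum of 50 CPM in NK-gated cells of DMSO, so it could only be counted as higher.

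The label's other marker genes behaved unevenly. Nrgn, encoding neurogranin, had 492 CPM in gated cells against 237 in NK-gated cells of STK, and 340 against 214 in DMSO, below 2 times in DMSO. Cd7 had 1673 against 1268 CPM in STK, and 753 against 946 in DMSO, so it did not set the gated cells apart. Csf2, encoding GM-CSF, had 268 against 28.7 CPM in STK but 34.0 against 29.4 in DMSO, so it marked these cells in 1 library only.

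**Figure D3:**
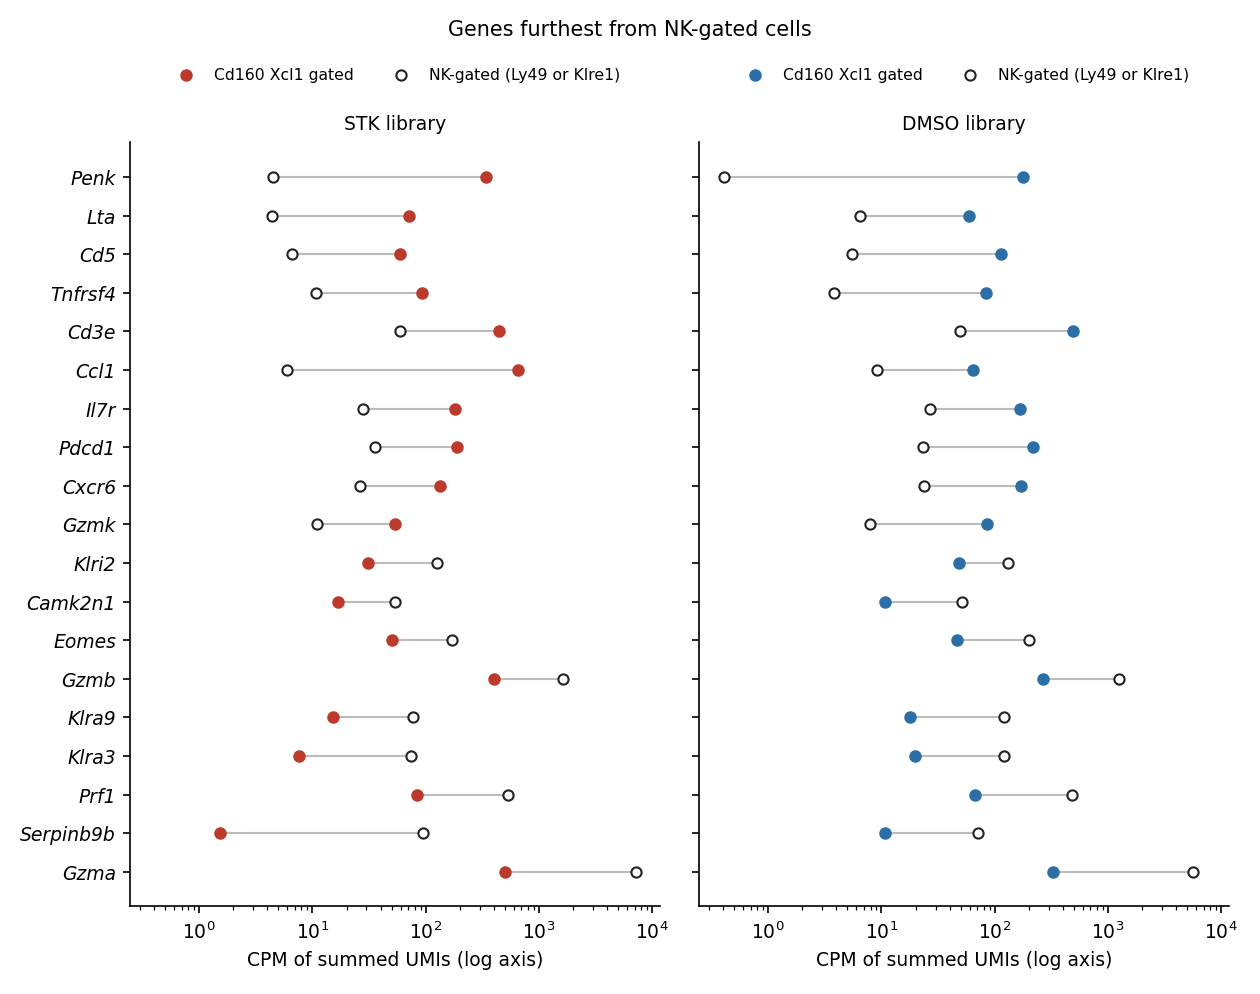
CPM of summed UMIs (log axis) of the 10 highest and 9 lowest genes relative to NK-gated cells, for cells of the Cd160 Xcl1 gate (filled) and NK-gated cells (open), in STK (left panel) and DMSO (right panel). Il7r, Cxcr6 and Lta sit higher in the Cd160 Xcl1 cells, and Gzma, Prf1 and Gzmb sit lower, in both libraries.

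Between treatments, 3143 genes had at least 30 UMIs and 50 CPM in the library where they were higher. Of these, 329 (10.5%) were at least 1.5 times higher in STK and 240 (7.64%) at least 1.5 times lower. With Y-linked RNA alone, 87 genes were higher and 380 lower. That subset holds 21 STK and 50 DMSO gated cells, so the minimum of 30 UMIs is met at a lower CPM in DMSO. More genes can be counted as lower on that ground alone, so the reversed balance was not read further. At these depths many such ratios are within counting error, and the counts also moved with the minimum. The same ratio is given beside it in NK-gated cells and in CD8-gated cells (1487 STK and 1026 DMSO cells with at least 2 Cd8 UMIs and a CD3 UMI), with no test of the difference.

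The gene of the label that differed most was Csf2 (GRCm38 chromosome 11, 54247271 to 54249667, minus strand), a growth factor for myeloid cells. It had 175 UMIs in 22 of 114 STK cells and 19 UMIs in 9 of 90 DMSO cells, which is 268 and 34.0 CPM and a ratio of 7.88 (4.90 to 13.4). Most of it lay in cells without CD3, with 543 CPM in STK and 56.5 in DMSO, against 64.1 and 22.0 CPM in cells with CD3. The 3 richest STK cells held 52.0% of the STK UMIs, and the highest cell in STK had 36 UMIs against 7 in DMSO. In NK-gated cells the ratio was 0.976 (0.785 to 1.22) and in CD8-gated cells 1.11. Csf2 was seen in 4 of 849 STK and 2 of 715 DMSO macrophage-gated cells. Within cells with Y-linked RNA alone the log2 ratio was 4.07, against 2.98 over all gated cells. Among cells with at least 2 Cd160 UMIs it was 1.19.

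Cytokine and chemokine genes as a list were on the STK side. Of 13 measured, 8 (61.5%, beside 10.5% over all genes) were at least 1.5 times higher in STK and none lower. The median log2 ratio was 0.70, against 0.01 over all genes and -0.05 for the list in NK-gated cells. Csf2, Areg and Vegfa had fewer than 30 UMIs in DMSO, so they passed the minimum only through STK. Such genes could only be counted as higher, so the count is partly set by the minimum. Areg, encoding the growth factor amphiregulin, had 65 UMIs in 15 STK cells and 5 UMIs in 1 DMSO cell, and its ratio in NK-gated cells was 5.01. Vegfa had 112 CPM in STK and 17.9 in DMSO and was likewise higher in NK-gated cells, at a ratio of 4.21. Tgfb1 had 348 and 174 CPM, a ratio of 2.0 (1.57 to 2.57), and Ccl5 had 3147 and 2036 CPM, a ratio of 1.55 (1.44 to 1.66). Xcl1, a gene of the rule, had 2855 CPM in STK and 1559 in DMSO; its ratio of 1.83 is a description, and in NK-gated cells the ratio was 1.05. Ifng had 152 and 120 CPM with an interval of the ratio from 0.918 to 1.75. Ccl4 was 0.832 of the DMSO level.

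Ccl1, the ligand of CCR8, needs its cells named. Of its 426 STK UMIs, 369 were in 1 cell that counted as a cell with CD3 by 1 CD3 UMI and also had 1 Ncr1 UMI. Of its 36 DMSO UMIs, 30 were in 1 cell without CD3. It was seen in 8 STK and 6 DMSO cells. The ratio over all gated cells, 10.1, is that of a few cells, and without CD3 it was 0.351. Its log2 ratio was -1.85 with Y-linked RNA alone.

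Genes induced early by antigen receptor signalling were also on the STK side. Of 13 measured, 8 (61.5%, beside 10.5% over all genes) were at least 1.5 times higher in STK. Only 1, Myc, was lower (7.69%, beside 7.64%). The median log2 ratio was 1.00, against 0.58 for the same list in NK-gated cells and 0.33 in CD8-gated cells. Nr4a3, an orphan nuclear receptor gene, had 241 CPM in STK and 48.4 in DMSO and was seen in 64 of 114 and 21 of 90 cells. It had 27 UMIs in DMSO, so it passed the minimum only through STK and could only be counted as higher. The STK ratio for Nr4a3 was 4.98 (3.29 to 7.79) in gated cells and 3.28 in NK-gated cells. It was higher in cells without CD3 than in cells with CD3 in STK, at 392 and 128 CPM, and had 61.6 and 41.3 CPM in DMSO. Nr4a1 was at a ratio of 2.16 (1.87 to 2.50), with 1825 CPM in STK cells without CD3 against 601 in DMSO cells without CD3. In cells with CD3 its levels were 446 and 413 CPM. Rel, an NF-kB subunit gene, had 248 and 73.5 CPM, and Tnfrsf9, encoding 4-1BB, had 399 and 149 CPM. Myc was 0.397 (0.306 to 0.512) of the DMSO level, and 0.503 in NK-gated cells.

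Several other genes with the largest ratios were widely spread over cells. Crem, a cAMP-responsive repressor gene, had 101 UMIs in 55 STK cells and 12 UMIs in 11 DMSO cells, a ratio of 7.20 (3.95 to 14.4), against 3.29 in NK-gated cells. Kdm6b, a histone H3 lysine 27 demethylase gene, was at 6.85 (4.18 to 11.9), against 3.43 in NK-gated cells. Dgat1, which makes triglyceride, had 184 UMIs in 75 STK cells and 26 UMIs in 16 DMSO cells, a ratio of 6.06 (4.0 to 9.52), against 3.05 in NK-gated and 3.10 in CD8-gated cells. All 3 were above equality in each population measured, and the higher ratio of the gated cells was not tested as a difference. Within cells with Y-linked RNA alone their log2 ratios were 3.33, 3.34 and 3.37.

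Several other genes with large ratios are known from myeloid cells, and S100a8, S100a9 and Il1b came from few barcodes. S100a8 had 59 UMIs in 3 STK cells and 1 UMI in DMSO, S100a9 had 82 in 2 STK cells and none in DMSO, and Il1b had 134 in 9 STK cells and 6 in 3 DMSO cells. In 1 STK barcode lay 73 of the 82 S100a9 UMIs. With barcodes that held RNA of other lineages left out, the Il1b log2 ratio was 0.27, against 4.26 with them. The neutrophil list summed to 225 CPM in STK and 5.38 in DMSO, with 84.4% of the STK sum in 1 cell, and S100a9 was the 1 of its 4 markers at 0 in DMSO. Acod1 and Cxcl2, which had no UMI in DMSO, were at least 11.1 and 9.98 times higher against a floor of 3 UMIs, in 11 and 6 STK cells. In NK-gated cells the ratios were 7.66 (4.13 to 15.8) for Acod1 and 1.42 for Cxcl2, and 1.32, 1.11 and 1.35 for S100a8, S100a9 and Il1b. Acod1 and Cxcl2 had no DMSO UMI in any subset either, so their other log2 ratios are also set against the floor of 3 UMIs. For Acod1 that value was 0.07 with Y-linked RNA alone, against 3.48 over all gated cells. For Cxcl2 it was 0.90 without barcodes of other lineages, against 3.32. Such values shrink as cells are left out, so 0.07 does not show equality.

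The 6 macrophage markers, all seen in both libraries, summed to 918 CPM in STK, with 48.2% in 1 cell, and to 799 CPM in DMSO, with 32.3% in 1 cell. In cells with CD3 they summed to 585 and 975 CPM, and in cells without CD3 to 1368 CPM in STK, with 76.1% in 1 cell, and 472 CPM in DMSO. Hepatocyte markers, all 8 seen in both libraries, summed to 204 CPM in STK and 3136 in DMSO, where 1 barcode held 89.3% of them. Genes high in hepatocytes were kept out of every count and ranking. All 3 basophil or mast cell markers and all 4 globin genes were at 0 in both libraries, as were Il5, Il13 and Il22. The part of other lineages in the results was not tested beyond the values given without these barcodes.

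Activation receptors followed in part. Of 11 measured checkpoint and costimulation genes, 4 (36.4%, beside 10.5% over all genes) were at least 1.5 times higher in STK and none lower. These were Tnfrsf9, Tnfrsf1b, Tigit and Tnfrsf18. Pdcd1 had 187 CPM in STK and 219 in DMSO. Il2ra, the high-affinity interleukin 2 receptor chain, had 87.4 and 39.4 CPM, a ratio of 2.22 (1.33 to 3.81), against 1.12 in NK-gated cells. Il18r1 and Il10ra were lower, at ratios of 0.474 and 0.443. Cd7 had 1673 CPM in STK and 753 in DMSO, a ratio of 2.22 (1.98 to 2.49), with a median of 7 UMIs per cell against 2. In cells with CD3 the Cd7 level was 1662 CPM in STK and 493 in DMSO, and in cells without CD3 it was 1688 and 1237 CPM, so the libraries stood further apart in the cells with CD3. With Y-linked RNA alone the log2 ratio of Cd7 was 1.75, against 1.15 over all gated cells. The Cd7 ratio was 1.34 in NK-gated and 1.5 in CD8-gated cells.

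Of 14 measured granzyme and cytotoxic genes, 4 (28.6%, beside 10.5% over all genes) were higher in STK and 1, Gzmk, was lower (7.14%, beside 7.64%). Serpinb9, the granzyme B inhibitor, had 684 CPM in STK and 296 in DMSO, a ratio of 2.31 (1.93 to 2.78), beside 2.0 in NK-gated cells. Srgn, the granule proteoglycan serglycin, was at 1.94 (1.75 to 2.14). Gzma and Gzmb were at 1.51 and 1.52, with intervals that reach down to 1.25 and 1.24. Gzma was seen in only 15 STK and 13 DMSO cells, and the 3 richest cells held 70.4% and 77.2% of its UMIs. Its interval treats UMIs as independent and does not cover this. For Gzmb the direction differed within the gate: with CD3 it had 486 CPM in STK and 165 in DMSO, a ratio of 2.94, and without CD3 it had 295 and 457 CPM, a ratio of 0.646. Prf1 was at 1.27 (0.823 to 1.98).

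Of 8 measured genes of the response to transforming growth factor beta, 4 (50%, beside 10.5% over all genes) were higher in STK and none lower. Skil had 95.1 and 30.5 CPM and Smad7 had 152 and 91.4 CPM, and both are feedback inhibitors of that pathway. Skil was below the minimum of 50 CPM in DMSO, so it passed only through STK and could only be counted as higher. In NK-gated cells the list's median log2 ratio was 0.53, close to 0.48 in the gated cells.

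Genes lower in STK were led by inducible chaperones. Hspa1a had 5 UMIs in STK and 96 in DMSO, and Hspa1b had 7 and 120, at ratios of 0.0446 and 0.0499. In NK-gated cells the ratios were 0.0527 and 0.0467, so NK-gated cells showed ratios of similar size. With Y-linked RNA alone the log2 ratio of Hspa1a was -2.52, against -4.49 over all gated cells. Of 21 measured heat shock and dissociation stress genes, 8 (38.1%, beside 7.64% over all genes) were lower. The 4 higher genes (19.0%, beside 10.5%) included Fosb, at 2.73, and Junb, at 1.80. Txnip, a glucose-regulated inhibitor of thioredoxin, had 85.9 CPM in STK and 229 in DMSO, a ratio of 0.374 (0.268 to 0.516), against 0.411 in NK-gated cells.

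Some lower genes were T cell genes or came from 1 cell. Cd6 had 41.4 CPM in STK and 111 in DMSO, at a ratio of 0.373 (0.228 to 0.594), and Cd5 was at 0.530. Both were at 1.00 and 1.22 in NK-gated cells, and at 1.02 and 0.933 in CD8-gated cells. All of the Cd6 UMIs were in cells with CD3. Its log2 ratio was -2.74 with Y-linked RNA alone and -2.14 without barcodes of other lineages, against -1.42 over all gated cells. All 35 DMSO UMIs of Ly6d were in 1 cell, and 22 of the 32 DMSO UMIs of Id3 were in 1 cell. Hist1h2bc, Luc7l, Exosc4, Mri1, Serpina3f and Snhg3 made up the rest of the lowest genes, at ratios from 0.325 to 0.416. The log2 ratio of Mri1 was 0.065 with Y-linked RNA alone.

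The oxysterol receptor and sterol esterification genes in the study's title were also read. Gpr132, a G protein-coupled receptor gene (GRCm38 chromosome 12, 112850873 to 112868228, minus strand), had 123 UMIs in 59 STK cells and 40 UMIs in 28 DMSO cells. Its levels of 189 and 71.7 CPM gave a ratio of 2.63 (1.83 to 3.86), against 3.24 in NK-gated and 2.44 in CD8-gated cells, so a higher Gpr132 level in STK was seen in each of these populations. It was seen in 36 of 65 STK and 22 of 54 DMSO cells with CD3, and in 23 of 49 and 6 of 36 cells without. Soat1, encoding sterol O-acyltransferase 1, had 13 and 15 UMIs, too few for a comparison at this depth.

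Of 19 measured proliferation genes, 4 (21.1%, beside 10.5% over all genes) were higher in STK and none lower, and Mki67 had 230 CPM in STK and 211 in DMSO. Of 10 type I interferon response genes, 2 (Xaf1 and Oas1a; 20%, beside 7.64% over all genes) were lower and none higher. Of 11 residency genes, 2 (18.2%, beside 10.5% over all genes) were higher and none lower. Il7r had 182 and 168 CPM with an interval of the ratio from 0.820 to 1.44. Ncr1 had 439 CPM in STK and 432 in DMSO.

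**Figure D4:**
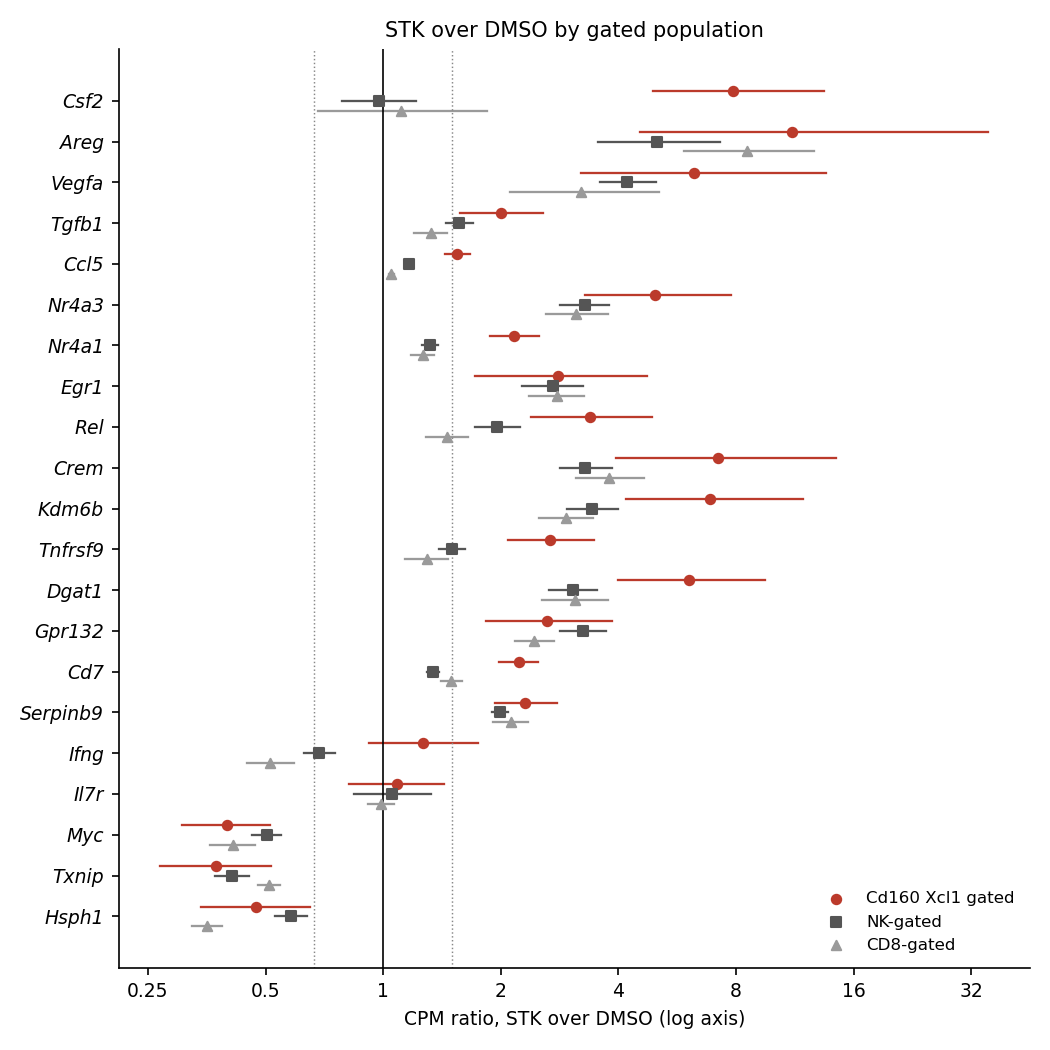
Ratio of CPM, STK over DMSO (log axis), in Cd160 Xcl1 gated cells (circles), NK-gated cells (squares) and CD8-gated cells (triangles), for 21 genes picked for display after their values were seen. Lines are exact conditional binomial intervals for counting error, dotted lines mark 1.5 times higher and lower, and Csf2 is high in the Cd160 Xcl1 cells and near equal in the other 2 populations.

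**Figure D5:**
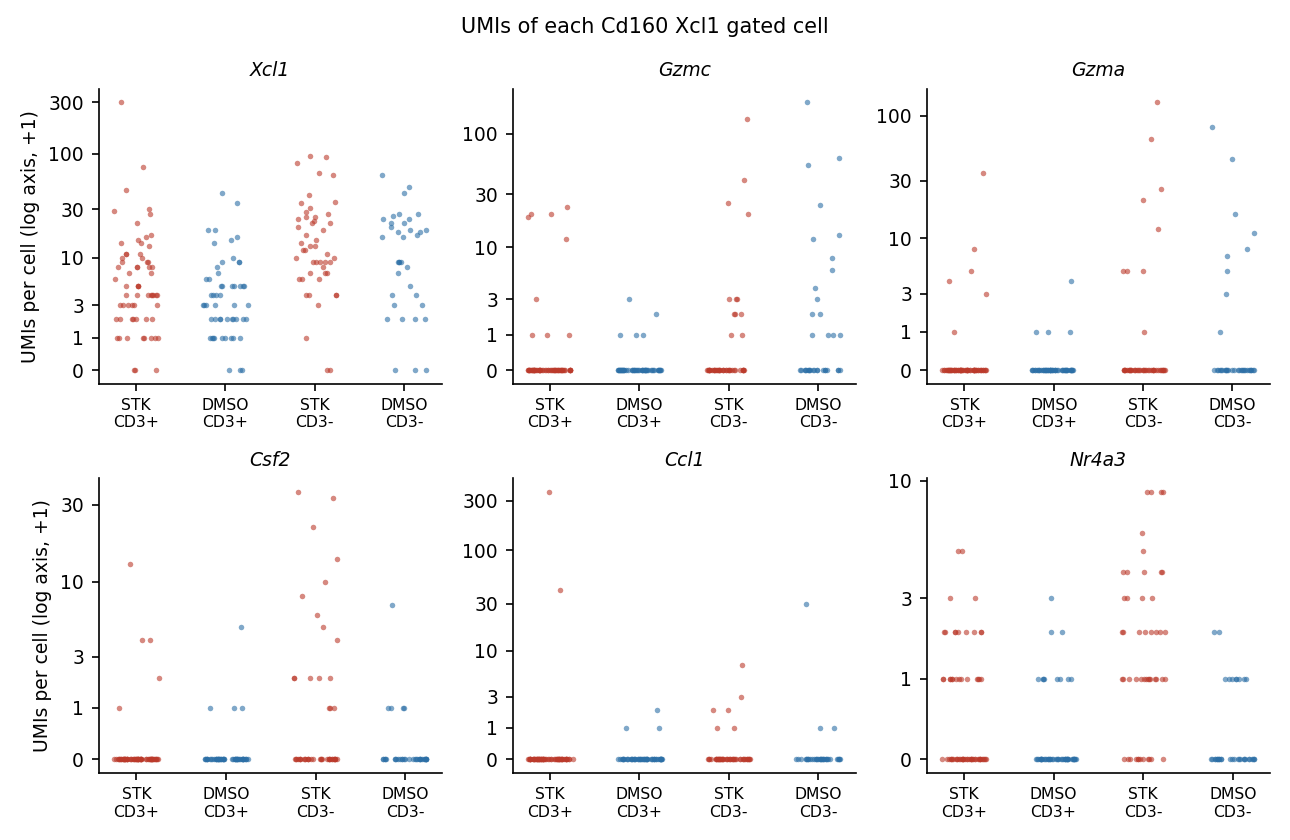
UMIs per cell (log axis after adding 1) of 6 genes in every gated cell, by library (STK red, DMSO blue) and by whether the cell had a CD3 UMI (CD3+ or CD3-). Xcl1 is spread over most cells, Csf2 reaches 36 UMIs in STK cells without CD3 and 7 in DMSO cells without CD3, and Ccl1 rests on 1 STK cell with 369 UMIs.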

How the data were processed

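Droplet single-cell RNA libraries (5′ chemistry, version 2) were made from CD45-sorted, DAPI-negative tumour cells, 1 library per treatment, per the labels' protocols. The values are raw UMI counts, not normalized, as deposited by the authors; Cell Ranger 6.0.2 wrote them per the file headers, with the build given as GRCm38 (mm10) per the submitters' processing notes. No source used here gives the annotation or strand settings of the counting. Positions are from GENCODE vM21 (GRCm38).

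UMIs of the gated cells were summed per library and scaled to CPM. Shares have Clopper-Pearson intervals and ratios exact conditional binomial intervals. A gene at 0 was set to a floor of 3 UMIs per library. A gene was measured with at least 30 UMIs and 50 CPM on its higher side. Genes of the rule, receptor segments, mitochondrial, ribosomal, sex-linked, globin and hepatocyte genes and unnamed gene models were left out. Named genes are the 13 highest and 13 lowest ratios between treatments, the 10 highest and 10 lowest against NK-gated cells and between cells with and without CD3, the label's markers, Gpr132, Soat1, and up to 6 genes of each list. Other genes given with a list, and the genes of the plot of ratios, were chosen after their values were seen. A gene that these rules would name is not reported here. The members and lists were chosen with earlier results of these data known.

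Doublets were kept, as the gate has no doublet clause. Scrublet (scanpy 1.11.5) at a score above 0.25 marked 4 STK and 5 DMSO gated cells; this limit was set after the automatic one had marked 0 STK cells. Cells with Xist or Y-linked RNA alone, stricter gates, thinning to 1000 or 2000 UMIs, equal weights per cell and other minimums were tried. The scripts were tested on simulated data and used scipy 1.17.1, numpy 2.4.6 and pandas 2.3.3.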

Additional observations from a re-analysis of the deposited data

Results flagged for a closer look

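Ccl1 moved in opposite directions between populations. Its STK over DMSO ratio was 10.1 in the gated cells and 0.117 (0.0725 to 0.182) in CD8-gated cells. Within the gated cells the ratio was 99.5 with CD3 and 0.351 (0.180 to 0.658) without CD3. A single STK cell held 369 of the 426 STK UMIs. That cell had 1 CD3 UMI and 1 Ncr1 UMI, so the contrast by CD3 rests on 1 CD3 UMI. Ly6d had a ratio of 0.122 in the gated cells and 2.51 (2.20 to 2.88) in CD8-gated cells, and all 35 of its DMSO UMIs in the gate were in 1 cell. Gzmb had a ratio of 2.94 in gated cells with CD3 and 0.646 (0.473 to 0.882) in those without. None of these differences was tested, since each library is a single sample.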

How the results depend on the processing

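The ratio of shares was 2.07 among cells with Xist RNA alone (56 STK and 6 DMSO gated cells) and 1.08 to 1.53 under the other settings. With Y-linked RNA alone (21 and 50 cells), 87 genes were higher and 380 lower in STK, 9 were higher than in NK-gated cells, and 1 was higher and 16 lower with CD3. The minimum of 30 UMIs is harder to reach in these smaller sets, and unequally so between the libraries. With at least 2 Cd160 UMIs, 212 genes were higher in STK. Without barcodes of other lineages, 25 genes were higher with CD3. In cells without CD3, 215 were higher and 97 lower in STK. With a minimum of 10 UMIs and no CPM limit, 945 were higher and 926 lower in STK, and 117 higher and 130 lower than in NK-gated cells. Log2 ratios changed sign for Ly6d (0.39 without doublets), Ccl1 (-1.85 with Y-linked RNA alone, -1.51 without CD3), Mri1 (0.065 with Y-linked RNA alone) and Id3 (0.14 with at least 4 UMIs of Xcl1, Gzmc and Klrc1). The cause was not tested. Of 326 values over 30 named genes between treatments, 261 stayed within counting error, 60 moved beyond it and 5 changed sign. A further pair of settings was added after seeing the data: without the richest cell of each gene, 392 genes were higher and 204 lower, and with a UMI in at least 10 cells, 322 and 237. Gene ratios with Xist RNA alone were not computed for want of DMSO cells. No paired analysis was possible because each group is 1 library.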
